A study of Homo sapiens with 6 samples.

Results

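The ERK feedback regulators described here are 10 genes that ERK signalling switches on and whose products mostly act back on the RAS to ERK pathway: the phosphatase genes DUSP4, DUSP5 and DUSP6, the Sprouty genes SPRY1, SPRY2 and SPRY4, the SPRED genes SPRED1 and SPRED2, and the ETS transcription factor genes ETV4 and ETV5. They were chosen by gene symbol, and all 10 were found among the 20532 genes of the deposited count table. Messenger RNA was sequenced from the M3 derivative of MDA-MB-231, a human breast cancer line that the labels describe as bone-metastatic. There were 3 control libraries and 3 libraries from cells in which PRMT1, the main enzyme that adds asymmetric methyl groups to arginine in proteins, was knocked down with a small interfering RNA (siPRMT1). By the labels the controls were untreated or control cells. No label says if these had a mock transfection or a non-targeting siRNA, and the siRNA's sequence, dose and time are not stated there either, so it is not known if transfection differs between the groups. The single comparison, siPRMT1 against control, addresses how transcripts of these genes differ when PRMT1 is lowered.

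In the ERK pathway, active RAS recruits RAF kinases, which phosphorylate MEK, which phosphorylates ERK. ERK activity switches on genes of its own inhibitors, so that their transcripts are widely read as a measure of pathway output. DUSP phosphatases remove the phosphates from ERK, Sprouty proteins act between receptors and RAF, and SPRED proteins bring the RAS inhibitor neurofibromin to the membrane. MDA-MB-231 cells, from which M3 derives, carry activating mutations in the pathway, BRAF among them, and signal through ERK without an outside ligand.

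Total counts ran from 16968563 to 20545995 per library. The targeted gene followed the labels: PRMT1 counts were 3160, 2991 and 3072 in controls, against 193, 218 and 181 after knockdown, a 12.3-fold lower CPM. Vimentin (VIM) was abundant, at 1817 CPM (counts scaled to library size and by TMM, which evens out the composition of libraries) on average in the controls, while the oestrogen receptor gene ESR1 had 5 counts and the progesterone receptor gene PGR 1 count over all libraries, as is known of MDA-MB-231. After knockdown VIM was at 2368 CPM, a log2 fold change of 0.38 (0.065 by library size alone, and -0.18 corrected for GC content and length as described below). Of the other markers of the line, AXL rose from 460.0 to 589.7 CPM (0.36, by library size alone 0.041, corrected 0.38). CD44 fell from 1156 to 703 CPM (-0.72, corrected 0.010). The keratin genes KRT8 (from 526 to 1507 CPM), KRT18 (from 255 to 901 CPM) and KRT19 (from 302 to 764 CPM) rose, by 1.52, 1.82 and 1.34 on the log2 scale (corrected 0.50, 0.72 and 0.068). Of the luminal list, ERBB2 was at 61.3 and 72.9 CPM and GATA3 at 5.65 and 3.49 CPM. Of 6 leukocyte markers, PTPRC, CD3E and ITGAM had at most 11 counts each over all libraries. CD68 and CD14, which tumour cells can also express, made up nearly the whole of that list's summed level. It was between 203 and 208 CPM in the controls and between 376 and 382 CPM in the siPRMT1 libraries. The log2 fold change was 0.885 for CD68 and 0.94 for CD14, corrected 0.042 and -0.31. Summed levels of 4 endothelial markers were between 25.1 and 26.3 CPM in the controls and between 20.2 and 21.1 CPM after knockdown. CDH5 had 1 count and TEK 12 counts in all, so the other 2, not reported here, made up nearly the whole sum. Of these 2, 1 passed the threshold given below as lower and 1 did not pass. After the correction 1 was lower and 1 higher. Summed levels of 5 bone cell markers were between 3.70 and 4.61 CPM in the controls and between 7.23 and 7.45 CPM after knockdown. BGLAP rose from 1.11 to 3.96 CPM (1.83, corrected 0.555), and CTSK was at 2.83 and 2.82 CPM (-0.0090, corrected -0.23). ACP5 had 36 counts, and SP7 and IBSP 1 count each in all. Mitochondrially encoded genes took between 5.001% and 5.09% of counts in the controls and between 8.64% and 8.74% after knockdown. The part of these marker and mitochondrial differences in the results that follow was not tested.

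After PRMT1 knockdown 8 of the 10 feedback regulators fell, among them 7 of the 8 inhibitor genes, and 2 rose, ETV4 strongly and DUSP5 slightly, the latter only in scalings that centre most genes near 0 and not by library size alone or after the correction for GC content and length given next. The median log2 fold change over the 10 was -1.13, where the median of all 13710 tested genes was -0.0080. The change was broad in these cells, which sets the scale for this count: 89.3% of tested genes passed the threshold, an adjusted p of 0.05 in edgeR's quasi-likelihood test, with 45.0% lower and 44.3% higher, so a called member alone is no result about the members. At least 2-fold falls were found for 6 of the 10 (DUSP6, SPRY1, SPRY2, SPRED1, SPRED2 and ETV5), against 21.0% of all tested genes. In no member did the 3 control values overlap the 3 siPRMT1 values, as was the case for 89.1% of tested genes. In bulk samples such as these, fewer cells expressing a gene and less RNA per cell cannot be told apart. Scaled by library size alone, 4588 genes were called higher and 7593 lower, where TMM scaling gave 6078 and 6165, and the medians were -1.44 over the members and -0.33 over all tested genes.

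Fold changes in this experiment also ran with GC content and with the length of transcripts, so the values were computed again with both removed. Tested genes with a GC content of at least 57.0% had a median log2 fold change of 0.86, and those with at most 41.9% had -0.92. After removal, 9 of the 10 members were lower and ETV4 alone was higher (against 40.4% and 40.0% of tested genes), with a median of -0.86 over the members and -0.010 over all tested genes. Falls of at least 2-fold were then found for 3 members, DUSP6, SPRY1 and SPRY2, and for 9.69% of tested genes. Corrected values stand with the genes described below.

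**Figure D1:**
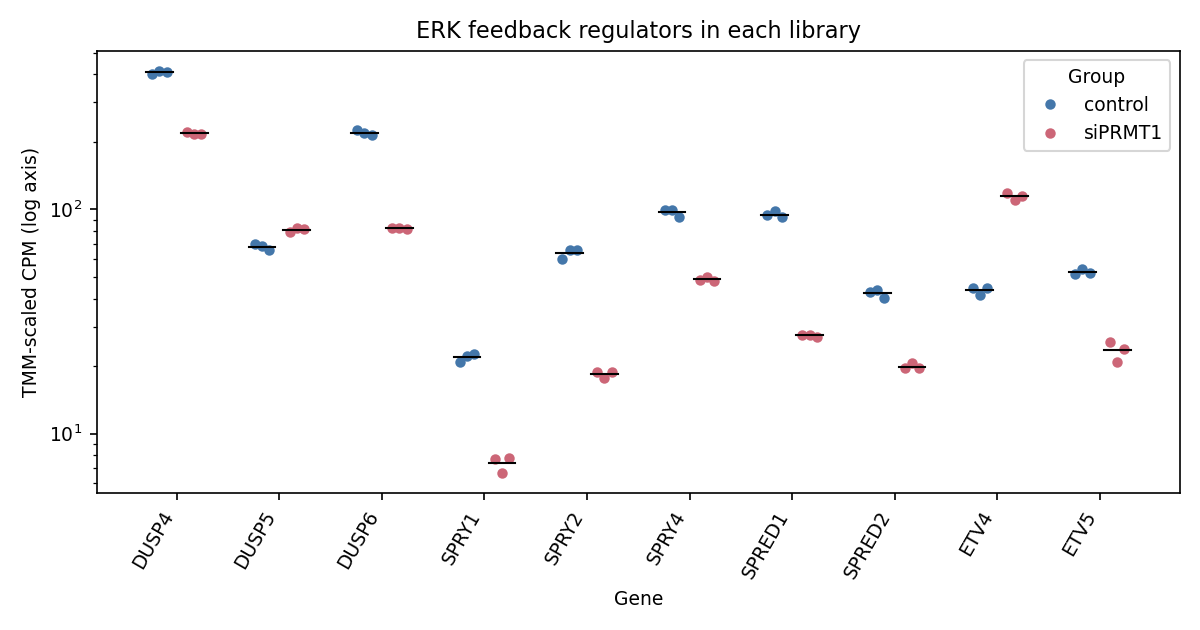
Level of each feedback regulator in each of the 6 libraries, as TMM-scaled CPM on a log axis; points are libraries, horizontal bars group means (n = 3 each). ETV4 and, on this scale but not by library size alone, DUSP5 lie higher in the siPRMT1 libraries, and the other 8 genes lie lower, with no overlap between groups.

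Upstream sequences are shown for the member with the largest uncorrected fall in each inhibitor family (after the correction SPRED2 fell more than SPRED1), among those with an entry in RefSeq's promoter table (GRCh38.p14), because ERK-responsive genes are read by ETS factors bound near their starts. They are the 250 bases before the annotated start, 5′ to 3′ on the gene's strand, and capitals mark GGAA or its complement TTCC, the core that ETS factors such as ETV4 and ETV5 recognise. The DUSP6 window is chr12:89352502-89352751 on the minus strand, that of SPRY2, the one of its 3 windows at the gene's outermost start, chr13:80341127-80341376 on the minus strand, and that of SPRED1 chr15:38252586-38252835 on the plus strand.
DUSP6: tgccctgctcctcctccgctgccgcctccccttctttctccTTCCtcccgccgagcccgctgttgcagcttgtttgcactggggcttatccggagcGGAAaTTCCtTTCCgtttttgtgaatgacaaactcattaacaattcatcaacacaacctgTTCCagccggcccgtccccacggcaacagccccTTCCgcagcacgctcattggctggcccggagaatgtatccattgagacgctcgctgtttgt
SPRY2: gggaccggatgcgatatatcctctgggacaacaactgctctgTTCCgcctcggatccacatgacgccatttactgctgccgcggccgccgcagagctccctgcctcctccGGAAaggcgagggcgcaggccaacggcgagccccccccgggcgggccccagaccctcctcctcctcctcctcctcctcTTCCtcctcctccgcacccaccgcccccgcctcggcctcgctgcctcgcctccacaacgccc
SPRED1: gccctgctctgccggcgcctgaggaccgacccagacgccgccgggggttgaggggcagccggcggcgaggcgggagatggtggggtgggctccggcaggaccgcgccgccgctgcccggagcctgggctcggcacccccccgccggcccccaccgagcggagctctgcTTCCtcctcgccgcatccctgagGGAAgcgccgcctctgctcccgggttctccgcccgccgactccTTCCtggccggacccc
The core occurred 6 times in the DUSP6 window and 3 times in each of the others. It is common by its shortness: 92.7% of 35116 upstream windows of this length hold it on either strand. The longer ETS spelling CCGGAA or TTCCGG, which includes the core, was found once in the SPRY2 window, in neither of the others, and in 14.5% of all windows. The CCAAT box (CCAAT or ATTGG) occurred once in the DUSP6 window and in 32.01% of all windows. The AP-1 spelling TGANTCA, found in 6.57% of all windows, was in none of these 3, which says only that these letters are not in them. GC content of the windows was 57.2% for DUSP6, 70.4% for SPRY2 and 78.4% for SPRED1, where the median window had 58.0%. Of the 10 members 6 were found in the table, with 10 windows in all, and DUSP4, DUSP5, ETV4 and ETV5 have no entry in it.

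The dual-specificity phosphatases differed from each other. DUSP6, which dephosphorylates ERK in the cytoplasm (ENSG00000139318; hg38, chromosome 12, 89347235 to 89352497, minus strand), had 226, 219 and 214 CPM in the control libraries and 82.7, 82.4 and 82.0 CPM in the siPRMT1 libraries. Every siPRMT1 library thus held well under the lowest control, and the siPRMT1 values lay closer together than the controls did. The mean fell from 219.7 ± 5.998 to 82.4 ± 0.363 CPM (SD, n = 3 each), to 37.5% of control, with a log2 fold change of -1.42 (SE 0.0267; edgeR quasi-likelihood test, Benjamini-Hochberg adjusted p = 9.01e-213) and a corrected value of -1.09.

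DUSP4, a nuclear phosphatase of ERK and the most abundant member by counts (ENSG00000120875; hg38, chromosome 8, 29333064 to 29350684, minus strand), had 402, 414 and 408 CPM in the controls and 222, 216 and 217 CPM after knockdown. Its 3 siPRMT1 values lay at 53.5% of the control mean, a log2 fold change of -0.90 (SE 0.0184; edgeR, adjusted p = 4.48e-198) and a corrected value of -0.60. DUSP5, also nuclear and specific to ERK (ENSG00000138166; hg38, chromosome 10, 110497907 to 110511533, plus strand), went the other way, from 70.3, 68.8 and 65.8 CPM to 79.0, 82.9 and 81.6 CPM. The groups did not overlap, but the shift was small, at 0.25 (SE 0.0338; edgeR, adjusted p = 8.91e-13). Its direction depended on the scaling: it was -0.068 by library size alone (adjusted p = 0.0514) and -0.31 after the correction (adjusted p = 3.23e-12). GENCODE lists processed pseudogenes of DUSP5 on chromosomes 1 and 3, so part of its reads may have been lost or shared, and its value is uncertain to that extent. Together the 3 phosphatase genes went from 696 ± 7.52 to 382 ± 1.40 CPM, 54.9% of control.

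All 3 Sprouty genes fell. SPRY2 (ENSG00000136158; hg38, chromosome 13, 80335976 to 80341126, minus strand), which binds the adaptor GRB2 and the ubiquitin ligase CBL, had 60.1, 66.0 and 65.7 CPM in the controls and 18.9, 17.7 and 18.9 CPM after knockdown. This was the largest measured fall of the 10 members, level with that of SPRED1, to 28.9% of control, with a log2 fold change of -1.79 (SE 0.0489; edgeR, adjusted p = 1.56e-146), lower than in all but 7.07% of tested genes. It was no smaller after the correction, at -1.89, and then only 2.07% of tested genes lay lower. SPRY1 (ENSG00000164056; hg38, chromosome 4, 123396795 to 123403755, plus strand), the least abundant member, had 20.9, 22.2 and 22.7 CPM against 7.69, 6.69 and 7.75 CPM. Its log2 fold change was -1.58 (SE 0.0782; edgeR, adjusted p = 3.86e-67), corrected -1.38, and its raw counts of 118 to 124 in the siPRMT1 libraries were the lowest behind any value of a member. SPRY4 (ENSG00000187678; hg38, chromosome 5, 142310427 to 142326455, minus strand) had 99.6, 99.6 and 92.8 CPM in the controls and 48.3, 49.9 and 47.9 CPM after knockdown. It fell least of the family, by 1.00 on the log2 scale (SE 0.0354; edgeR, adjusted p = 1.15e-106), corrected -0.83. As a family the Sprouty transcripts went from 183 ± 3.997 to 74.6 ± 0.266 CPM.

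Both SPRED genes fell too, but their order turned with the correction. SPRED1 (ENSG00000166068; hg38, chromosome 15, 38252836 to 38357249, plus strand), whose loss in patients causes a syndrome resembling neurofibromatosis, had 93.9, 98.4 and 92.1 CPM in the controls and 27.6, 27.6 and 27.0 CPM after knockdown. The siPRMT1 values were at 28.9% of control, and the log2 fold change of -1.79 (SE 0.0407; edgeR, adjusted p = 9.15e-178) was within its error of that of SPRY2. Its transcript is the longest of the members and the poorest in GC, and the corrected value was -0.40 (edgeR, adjusted p = 1.04e-12). SPRED2 (ENSG00000198369; hg38, chromosome 2, 65310851 to 65432637, minus strand) had 42.8, 43.5 and 40.3 CPM against 19.5, 20.6 and 19.6 CPM. It fell by 1.08 on the log2 scale (SE 0.0524; edgeR, adjusted p = 2.20e-69) and its corrected value was -0.89. The SPRED sum went from 137 ± 4.76 to 47.3 ± 0.845 CPM, 34.5% of control, of which SPRED1 made up most. Summed over the 8 inhibitor genes, the level went from 1016 ± 15.3 to 504 ± 1.86 CPM, 49.6% of control. DUSP4 (408.1 CPM in the controls) and DUSP6 (219.7 CPM) make up most of this sum, so it mainly follows them. The sums of the families and of the inhibitors were not computed with the correction.

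The pair of ETS factors, close relatives of the PEA3 group that bind the same core sequence, moved in opposite directions. ETV4 (ENSG00000175832; hg38, chromosome 17, 43527844 to 43579620, minus strand) had 44.6, 41.7 and 44.7 CPM in the controls and 118.8, 109.6 and 114.7 CPM after knockdown (raw counts 978, 834 and 950 against 1915, 2015 and 1746). Every siPRMT1 library lay more than 2-fold above every control, with a log2 fold change of 1.39 (SE 0.0345, edgeR, adjusted p = 9.82e-162), higher than in 94.96% of tested genes. After the correction it was higher than in 81.7% of tested genes. ETV4 rose under every setting tried, from 0.51 after the correction to 1.42 with a single library left out. ETV5 (ENSG00000244405; hg38, chromosome 3, 186046314 to 186110318, minus strand) had 51.6, 54.2 and 52.2 CPM in the controls and 25.7, 20.9 and 23.9 CPM after knockdown. It fell by 1.17 on the log2 scale (SE 0.0483; edgeR, adjusted p = 1.43e-87), corrected -0.88, and its siPRMT1 values varied more, relative to their mean, than those of the other members. The sum of ETV4 and ETV5 went from 96.4 ± 0.527 to 138 ± 7.01 CPM.

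ETV4 lies inside the span that GENCODE release 44 gives to DHX8 on the opposite strand, and without a stated strand setting of the counting, reads of both genes cannot be told apart where exons overlap. DHX8, an RNA helicase gene of the spliceosome, was at 75.8 ± 1.70 CPM in the controls and 76.1 ± 2.66 CPM after knockdown (log2 fold change 0.0010, edgeR adjusted p = 0.969; corrected 0.38). The start of ETV5 overlaps DGKG on the same strand, which was at 4.04 ± 0.935 and 2.94 ± 0.331 CPM (log2 fold change -0.44, corrected -0.014). Noncoding genes on the opposite strand overlap DUSP6, SPRY4 and ETV5, and others on the same strand overlap SPRED2 and ETV5, where a strand setting would not separate them. They were not counted as genes of their own in the table.

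**Figure D2:**
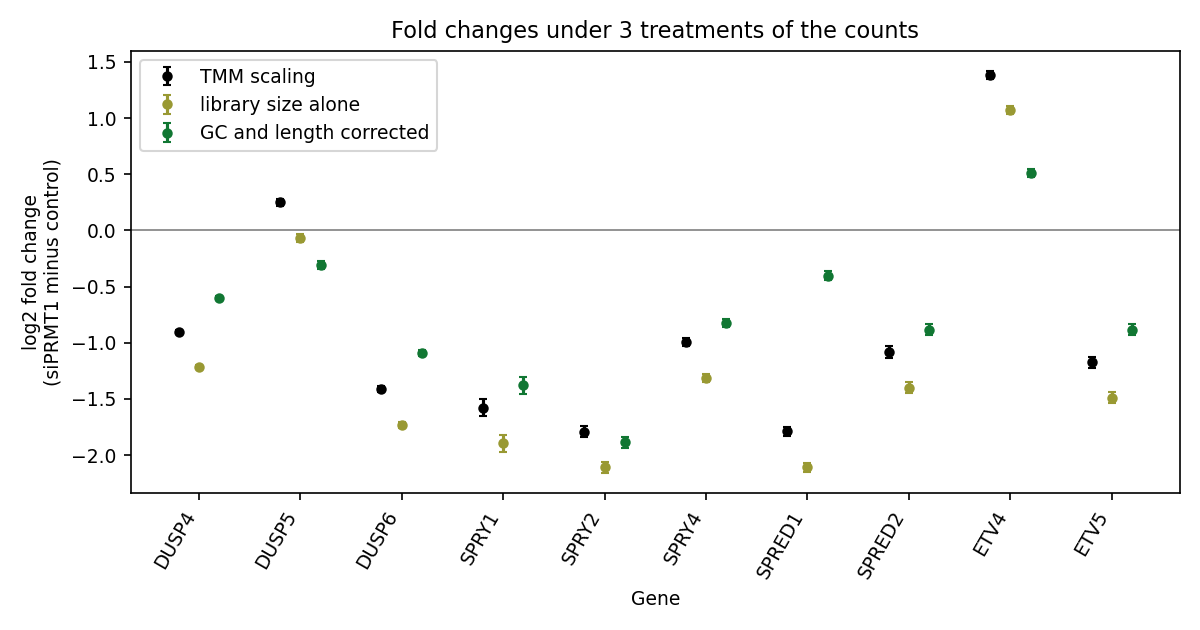
Log2 fold change of each feedback regulator (siPRMT1 minus control, error bars ± SE from the fit on 3 libraries each) with TMM scaling, with library size alone, and with GC content and transcript length corrected. DUSP5 crosses 0 (0.25, -0.068 and -0.31), SPRED1 moves from -1.79 to -0.40, and SPRY2 stays between -1.79 and -2.11.

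Ratios of related members within a library hardly depend on how libraries are scaled, and were compared for 8 pairs. All 8 differed between groups without overlap, and each gave an exact two-sided permutation p = 0.1 over the 3 against 3 libraries, which is the smallest that this design can give (adjusted over the 8 pairs, 0.1), so none could pass 0.05. The log2 ratio of ETV4 to ETV5 was -0.21, -0.38 and -0.22 in the controls and 2.19, 2.36 and 2.24 after knockdown, a shift of 2.53 (SE 0.0740), or 5.78-fold. In the controls ETV5 thus had slightly more reads than ETV4, and in the siPRMT1 libraries ETV4 had several times those of ETV5. The ETV4 to ETV5 shift was 1.37 (SE 0.0772) after the correction.

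Among the phosphatases, the log2 ratio of DUSP5 to DUSP6 was higher by 1.66 (SE 0.0242), at -1.68 and -0.022, so that both genes had nearly equal CPM after knockdown. Corrected, the shift was 0.78. DUSP4 against DUSP6 shifted by 0.51 (SE 0.0326), corrected 0.49, and DUSP4 against DUSP5 by -1.15 (SE 0.0455), corrected -0.29. Within the Sprouty family the shift was -0.77 (SE 0.0828) for SPRY2 against SPRY4, corrected -1.04 (SE 0.0860), and -0.52 (SE 0.104) for SPRY1 against SPRY4, corrected -0.49. For SPRY1 against SPRY2 it was 0.25 (SE 0.0360), corrected 0.54. SPRED1 against SPRED2 was the pair whose direction turned, from -0.71 (SE 0.0277) to 0.49 (SE 0.0366) after the correction.

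**Figure D3:**
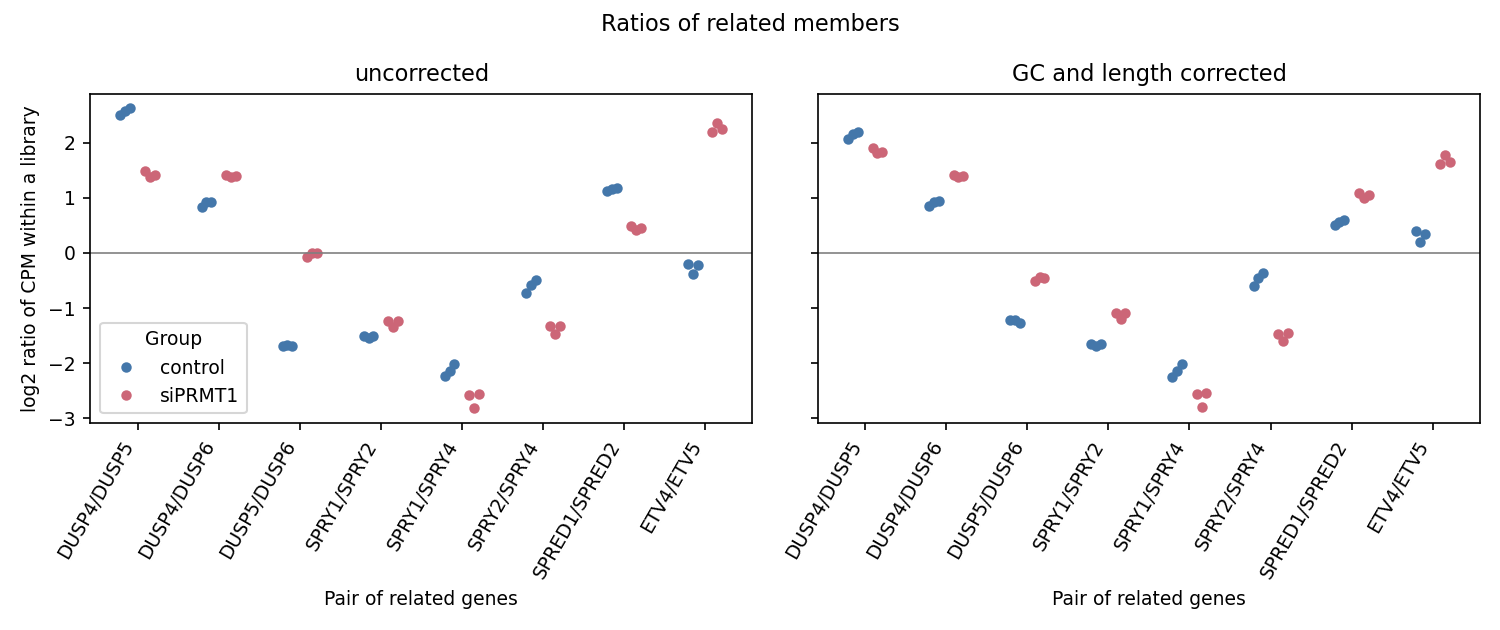
Log2 ratio of CPM of 2 related genes within each library, without and with GC and length correction; each point is a library (3 control, 3 siPRMT1). The ETV4/ETV5 ratio is below 0 in the controls and above 2 in the siPRMT1 libraries without correction, and the SPRED1/SPRED2 shift changes sign between the panels.

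Per kilobase of the gene length given in the table (RPKM, which is CPM over that length), the order of the members' levels changed. In the controls DUSP6 (RPKM 56.9 ± 1.55, SD, n = 3) and DUSP4 (56.1 ± 0.851) led with overlapping values, followed by DUSP5 (26.9 ± 0.889), SPRY2 (19.9 ± 1.04) and SPRY4 (14.9 ± 0.597). ETV4 (12.4 ± 0.492) and SPRED1 (12.2 ± 0.416) overlapped, and ETV5 (9.13 ± 0.235), SPRED2 (7.64 ± 0.309) and SPRY1 (5.53 ± 0.240) came last in that order without overlap. The leading phosphatases stood above 95.5% and 95.4% of tested genes on this per-length scale. In the siPRMT1 libraries ETV4 (32.5 ± 1.32) and DUSP5 (32.01 ± 0.785) led and overlapped, then came DUSP4 (30.03 ± 0.398) and DUSP6 (21.4 ± 0.0940). SPRY4 (7.43 ± 0.165) now lay above SPRY2 (5.75 ± 0.219), ETV5 (4.07 ± 0.415) overlapped SPRED2 (3.60 ± 0.110), SPRED2 overlapped SPRED1 (3.54 ± 0.0461), and SPRY1 (1.86 ± 0.151) stayed last. By group means without the GC and length correction, ETV4 thus went from the sixth to the first place, and DUSP6 from the first to the fourth. Because of the overlaps, the places of ETV4 in both groups and of DUSP6 in the controls are not settled. The order was not computed with the correction. Corrected log2 fold changes were 0.51 for ETV4, -0.31 for DUSP5, -0.60 for DUSP4 and -1.09 for DUSP6.

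The members differ widely in the transcript properties that the fold changes ran with. Among canonical transcripts in GENCODE release 44, ETV4 had the highest GC content of the 10 (60.6%, above 86.1% of tested genes) and DUSP5 the next (55.8%), and these are the 2 members that rose with TMM scaling. SPRED1 had the lowest (36.3%, above 3.34% of tested genes) and the longest transcript, 7270 bases. The other 7 lay between 44.8% for SPRY1 and 52.2% for SPRY4, around the median of 48.6% over tested genes. The shift that the fit on GC content and length assigned to each gene was 0.88 for ETV4, 0.56 for DUSP5, -1.39 for SPRED1 and between -0.32 and 0.096 for the other 7, on the log2 scale. SPRY2, with a GC content of 47.9% and 2286 bases, was assigned 0.096, while its measured value was -1.79.

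The 3′ UTRs of ETV4 (673 bases) and DUSP5 (1107 bases), the members that rose with TMM scaling, have no AUUUA, the core of AU-rich elements that govern the decay of many short-lived transcripts, as is the case for 28.5% of tested genes. The 8 members that fell have between 1 (DUSP6) and 24 (SPRED1, in 5585 bases), where the median gene has 2. Among the members that fell, SPRY2 has a 3′ UTR of 782 bases and SPRY1 one of 1204, and the median over tested genes was 1282.5. Over tested genes the median log2 fold change was 0.79 without AUUUA and -0.38 with at least 1, but genes without it have shorter 3′ UTRs (median 363 against 1869 bases), and corrected medians were 0.076 and -0.051. The part of these elements in the members' fold changes was not tested.

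**Figure D4:**
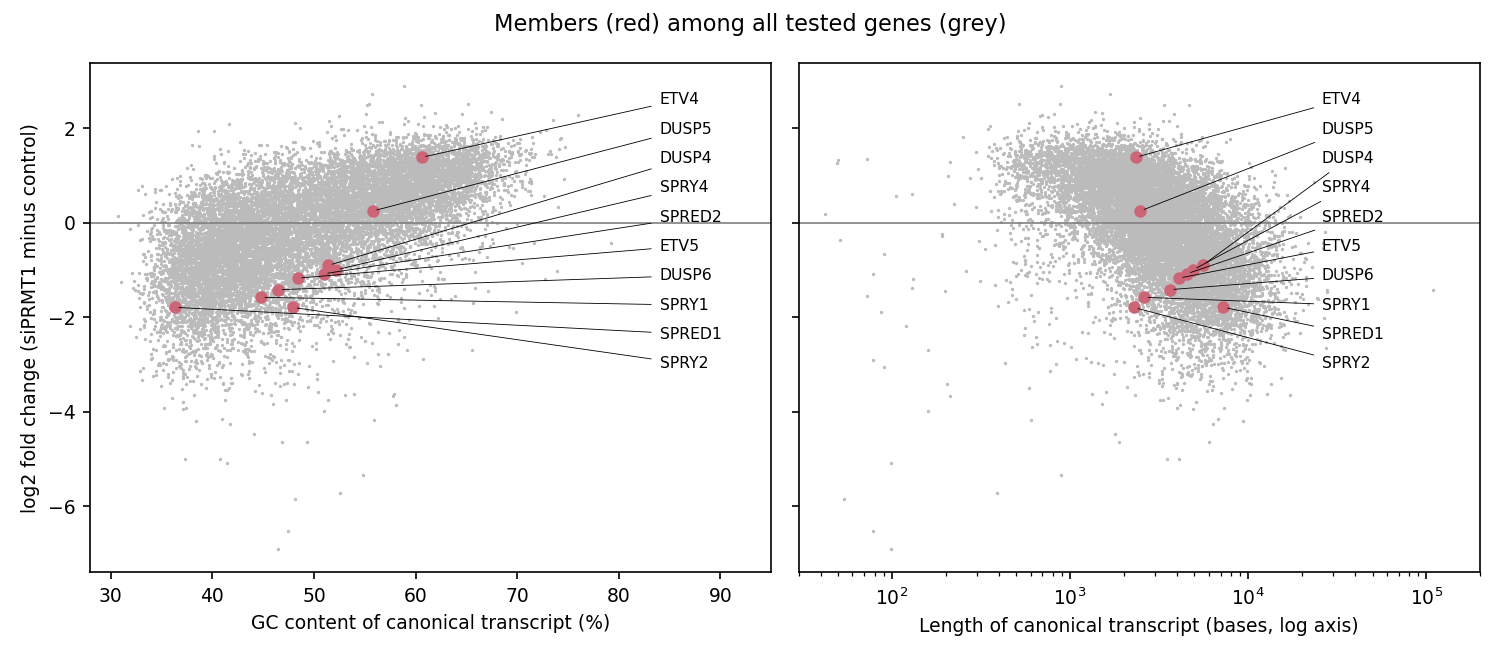
Log2 fold change (siPRMT1 minus control) against GC content and against length (log axis) of the canonical transcript, for all tested genes (grey) and the 10 feedback regulators (red). ETV4 and DUSP5 lie at high GC content, SPRED1 at the low end with 36.3%, and the remaining 7 in the middle between 44.8% and 52.2%, where SPRY2 is the lowest of them.

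The genes whose profile over the 6 libraries was nearest to that of DUSP6, by Euclidean distance of centred log2 CPM among 10052 genes with a mean of at least 10 CPM, were UEVLD (distance 0.0278), PI4K2B (0.0386) and ATP2A2 (0.0387). With 2 tight groups of 3 libraries, this measure mostly ranks genes by the size of the fold change, which was -1.44, -1.45 and -1.40 for these 3.

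Genes upstream of the feedback regulators moved as well. Of 19 genes of the RAS to ERK cascade 11 fell, 6 rose and 2 did not pass, among them the scaffold gene KSR1 (-0.032, corrected -0.066). Of all tested genes 45.0% fell and 44.3% rose. The median of the 19 was -0.95 (all tested genes -0.0080). PTPN11, the phosphatase SHP2 that couples receptors to RAS, fell from 240.3 ± 5.43 to 42.1 ± 0.295 CPM (-2.51, corrected -1.58), and RPS6KA3, an ERK-activated kinase, by 1.84 (corrected -0.63). Related genes split before the correction: NRAS fell (-1.20, corrected -0.21) and HRAS rose (1.35), BRAF fell (-1.28, corrected -0.26) and ARAF rose (1.16). MAP2K1 fell (-0.95, corrected -1.17) and MAP2K2 rose (1.11), and the ERK gene MAPK3 rose by 0.87. GC content was 37.4% for NRAS, 41.1% for BRAF and 51.2% for MAP2K1, which fell, and from 59.0% for ARAF to 65.4% for MAP2K2 among the 4 that rose. After the correction 15 of the 19 were lower and 2 higher, against 40.4% and 40.0% of tested genes, with a median of -0.23. HRAS (-0.077), MAP2K2 (-0.15) and MAPK3 (-0.23) were then lower, as was the adaptor gene SHC1 (0.23, by library size alone -0.083, corrected -0.13). ARAF (0.38) and RPS6KA1 (0.74, corrected 0.23) were still higher.

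Other MAP kinase phosphatase genes, not all of which act mainly on ERK, and further inhibitor genes of the pathway were mixed. Of 5 tested MAP kinase phosphatase genes outside the members, DUSP10 (-1.06, corrected -0.90) and DUSP16 (-0.67, corrected -0.0070), which act mainly on JNK and p38, fell. DUSP7 (0.57, corrected 0.031) and DUSP8 (1.19, corrected 0.66) rose, the latter on only 146 counts over all libraries. DUSP1 did not pass (-0.064) but passed as lower after the correction (-0.75). DUSP7 and DUSP16 no longer passed after the correction. DUSP2 and DUSP9 had too few counts to be tested. Of 10 tested further inhibitors, 7 were lower and 3 higher (median -1.34), and 8 were lower after the correction (median -0.74). Of all tested genes 45.0% were lower and 44.3% higher, and 40.4% were lower after the correction. The RAS GTPase-activating protein genes RASA1 (from 62.4 ± 2.22 to 9.57 ± 1.62 CPM; -2.72, corrected -2.07) and NF1 (-2.02, corrected -0.82), whose product is the partner of SPRED proteins, the ubiquitin ligase gene CBL (-2.21, corrected -1.26) and the EGFR inhibitor gene ERRFI1 (-1.33, corrected -0.93) fell. SPRED3 (0.53, corrected 0.22), the third SPRED gene, and LZTR1 (0.79, corrected 0.34) rose, as did PEBP1, which encodes an inhibitor of RAF kinase (0.23, but -0.085 by library size alone and -0.40 corrected). SPRY3 had 5 counts over all libraries and was not tested.

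Of 14 tested ETS factors and their regulators 8 fell and 5 rose, against 45.0% and 44.3% of all tested genes (list median -0.92, corrected -0.41). After the correction 9 were lower and 4 higher, against 40.4% and 40.0% of tested genes. DET1, a partner of COP1, did not pass (-0.22) but passed as lower after the correction (-0.40). ETV1, the remaining PEA3 group gene, fell from 143 to 41.3 CPM (-1.79, corrected -0.51), so that ETV4 was the one of the 3 that rose. ETS1 (-1.49, corrected -0.70), ELK3 (-1.14, corrected -0.50) and ELF1 (-2.03, corrected -1.17) fell. So did ATXN1L (-0.94, corrected -0.41), listed among the regulators. The repressor genes ERF (1.14, corrected 0.26) and CIC (0.55, corrected 0.32), whose product holds ETV4 and ETV5 down when ERK is inactive, rose. ETV6 rose too (0.21, corrected 0.79) but was lower by library size alone (-0.11), and ELK1 (0.10) turned to -0.22 with library size and to -0.45 with the correction. COP1, a ubiquitin ligase gene whose product marks ETV proteins for destruction, was higher by 0.15 (edgeR, adjusted p = 0.00368; corrected 0.22), a call lost without siPRMT1 replicate 2 (0.11, adjusted p = 0.0729) and turned by library size alone (-0.16).

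Among 17 other output genes of ERK signalling 11 were lower and 6 higher (median -0.34), against 45.0% and 44.3% of all tested genes. After the correction 13 were lower and 2 higher (median -0.60), against 40.4% and 40.0% of tested genes. EREG, an EGFR ligand gene, fell from 73.2 ± 2.29 to 8.23 ± 0.446 CPM (-3.15, corrected -2.02), and PHLDA1 fell (-0.62) but was higher after the correction (0.24). The AP-1 gene FOSL1 (0.90), the immediate early genes IER2 (0.85) and IER3 (0.55) and the neuropeptide precursor gene VGF (0.82) rose. Their corrected values were -0.13, -0.19, -0.60 and -0.18, of which that of VGF did not pass. VGF had only 189 counts over all libraries. In the same list FOS (-1.03, corrected -1.50), EGR1 (-0.50, corrected -0.85) and MYC (-0.83, corrected -0.63) fell. FOS had only 130 counts over all libraries and EGR1 363. HMGA2 (0.11, corrected 0.69) rose but was lower by library size alone (-0.21).

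**Figure D5:**
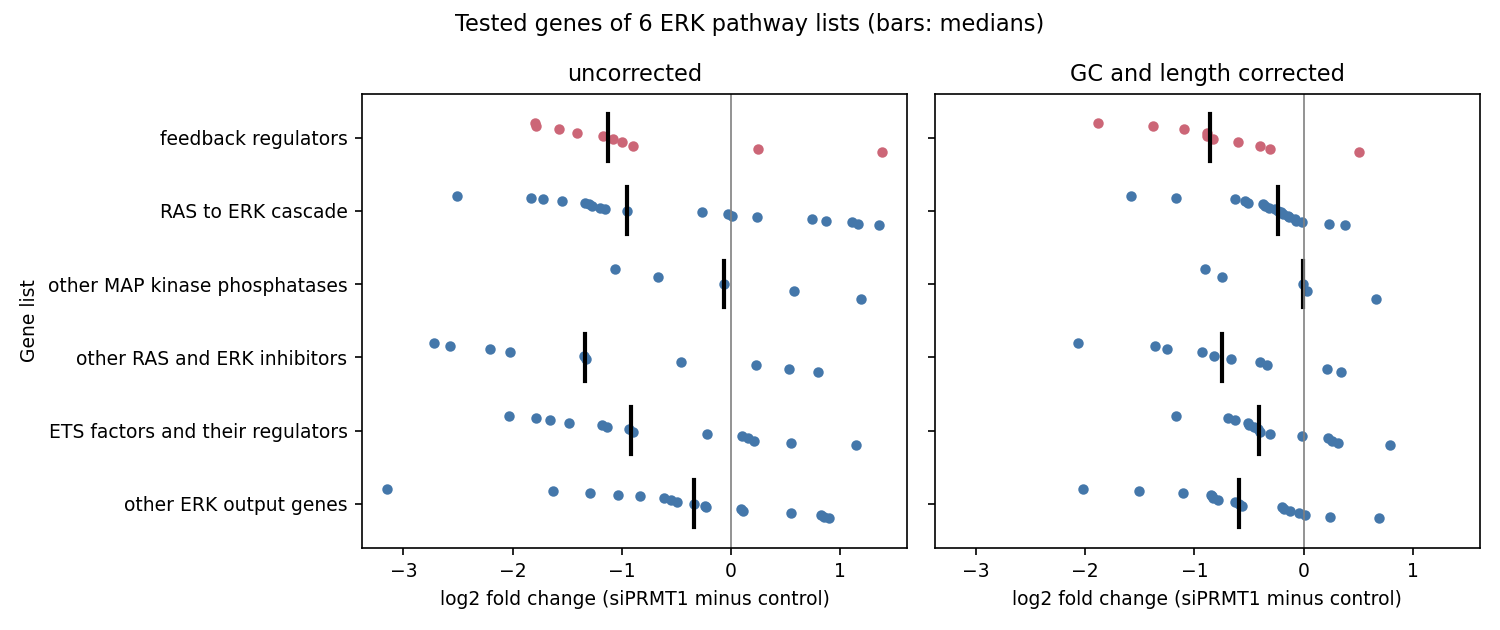
Log2 fold change (siPRMT1 minus control) of each tested gene in the 10 feedback regulators (red) and 5 other ERK pathway lists (blue), without and with GC and length correction; points are genes, vertical bars medians. The median of the feedback regulators is -1.13 and -0.86, and that of the RAS to ERK cascade moves from -0.95 to -0.23.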

How the data were processed

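Stranded mRNA libraries were read as pairs of 150 bases, per the labels' protocols. Tools listed in the submitters' processing notes are edgeR 3.40.2, featureCounts, Subread 1.5.1, STAR 2.7.6a and fastp 0.23.2, with hg38 as build. Their roles, the annotation release, the strand setting and the handling of duplicates are not stated. The authors deposited raw counts of reads for each gene, as whole numbers, with gene lengths in bases, per the file headers. Members and gene lists were chosen with earlier results of these data known, and support no independent claim. Named beside the members were PRMT1, RAS, RAF, MEK and ERK genes, and the 3 genes nearest to DUSP6. Per list, the 4 most significant genes at most and all that went against its majority were also named. Genes that did not pass before the correction (KSR1, DUSP1, DET1), and untested ones, were named after their values were seen. So were FOS, EGR1, MYC and ATXN1L. Some genes that this rule takes are not reported here.

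Counts were filtered with filterByExpr, which left 13710 of 20532 genes, scaled by TMM and tested with edgeR 4.0.16 (R 4.3.3; glmQLFit and glmQLFTest), with Benjamini-Hochberg adjustment over all tested genes and a threshold of 0.05. The script was tested on simulated data. Standard errors were the fold change over the square root of F, and CPM are TMM-scaled. Log2 ratios used CPM plus 0.5. The correction fitted natural splines with 5 degrees of freedom on GC content and log2 length of the canonical transcript (GENCODE release 44, known for 13694 tested genes) to each library's centred log2 CPM, and used the fit as offsets, rescaled by TMM. Replicate pairs differed by slightly more than sampling noise (chi-square over degrees of freedom from 1.05 to 1.38). The labels do not say that the biological replicates came from separate transfections, so p-values measure only how these samples scatter, possibly a technical spread. Alternatives were RLE, upper-quartile and library-size scaling, DESeq2 1.42.0, limma-voom (limma 3.58.1), no filter or a filter at 1 CPM in 3 libraries, the replicate number as a block, the correction with that block, leaving out each library, and a prior of 2 CPM for ratios.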

Additional observations from a re-analysis of the deposited data

How the results depend on the processing

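Scaling by library size shifted the median over tested genes by -0.32. With it, 1 member was called higher instead of 2, and the members' median was -1.44 instead of -1.13. With the GC and length correction, alone or with the replicate block, 1 member was higher, and the median was -0.86 in both. Genes called with an at least 2-fold change numbered 4976, and 1958 after the correction. Under the other settings for scaling, test and filter, 8 members were lower and 2 higher. Leaving out each library in turn gave medians from -1.155 to -1.096.

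Signs that turned under library size alone were DUSP5 (-0.068), SHC1 (-0.083), PEBP1 (-0.085), ELK1 (-0.217), ETV6 (-0.111), COP1 (-0.163) and HMGA2 (-0.209). With the correction, and with the correction and replicate block, DUSP5 (-0.307 and -0.309), SHC1 (-0.133 in both), HRAS (-0.0774 and -0.0767), MAP2K2 (-0.146 in both), MAPK3 (-0.234 and -0.238), PEBP1 (-0.398 and -0.397), ELK1 (-0.453 and -0.452), PHLDA1 (0.241 and 0.240), FOSL1 (-0.125 in both), IER2 (-0.194 and -0.193), IER3 (-0.596 in both) and VGF (-0.182 and -0.190) turned. The SPRED1 to SPRED2 ratio turned to 0.485 with the correction. A prior of 2 CPM moved the SPRY1 to SPRY2 shift to 0.334 and that of SPRY1 to SPRY4 to -0.383. The cause of these turns was not tested.

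Same-numbered replicates did not deviate together (r from -0.027 to -0.017 over 10052 genes). Replicates differed by little more than sampling noise, so this cannot tell if the numbers pair the libraries. With the replicate block 12219 genes were called instead of 12243, and the members' median was -1.127. The size of the p-values depended strongly on the setting. For DUSP6 the edgeR adjusted p was 9.01e-213 in the main fit, 4.46e-38 with the block and 1.60e-38 with the correction. ELK1 lost its call with upper-quartile scaling (0.053), and COP1 without siPRMT1 replicate 2 (0.111). SPRY1 has the fewest reads of the members and the widest standard error.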
